A study of Rattus norvegicus with 22 samples.

Results

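Cps1, Hal and Kynu encode liver enzymes of the urea cycle, of histidine breakdown and of the kynurenine route of tryptophan breakdown. They were taken by name from the larger of a pair of liver RNA-seq tables, and the 3 genes had 3 of its 1365 rows, out of 1434 rows in both tables. They had been noticed because their levels differed between the groups compared there, so they were selected on that difference, in log2(RPM + 1) values, and it is given as a description without a test. The smaller table, of the females, held 0 rows of these genes. The animals were Wistar rats at postnatal day 110. The larger table compared 5 male offspring of mothers on an obesogenic diet (MO males) with 6 male offspring of mothers on a control diet (control males), and the smaller one 5 MO females with 6 control females. The offspring groups differ by the mother's diet alone as far as the labels say. The make-up of that diet, the offspring's own feed and the litters are not stated in the labels, so the p-values below speak for the variation among these rats alone.

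Amino acids that are burned in the liver give up their nitrogen as ammonia, and the urea cycle turns it into urea for excretion. Cps1 (carbamoyl-phosphate synthetase 1) is the mitochondrial enzyme that brings ammonia into the cycle, and it is among the most abundant proteins of liver mitochondria. Hal (histidine ammonia-lyase, or histidase) removes ammonia from histidine and yields urocanate, the start of a route that ends in glutamate. Kynu (kynureninase) cleaves kynurenine and 3-hydroxykynurenine, and so feeds the branch of tryptophan breakdown that can lead to NAD. All of them are hepatocyte enzymes, and the urea cycle and histidase are known to be strongest in periportal hepatocytes, near the incoming blood.

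The deposited tables place Cps1 on chromosome 9, Hal on chromosome 7 and Kynu on chromosome 3. RefSeq promoter windows (build GRCr8) were matched for 2 of the 3 genes, Cps1 and Kynu. Both genes were lower in MO males, as were 96.5% of the male rows, and shared control of them was not tested. The 250 bases before the annotated start are shown because regulatory elements commonly lie near a start site. They lie on the plus strand at chr9:76063613-76063862 for Cps1 and at chr3:48188036-48188285 for Kynu. Capitals mark every match to the motifs named after the sequences.
Cps1: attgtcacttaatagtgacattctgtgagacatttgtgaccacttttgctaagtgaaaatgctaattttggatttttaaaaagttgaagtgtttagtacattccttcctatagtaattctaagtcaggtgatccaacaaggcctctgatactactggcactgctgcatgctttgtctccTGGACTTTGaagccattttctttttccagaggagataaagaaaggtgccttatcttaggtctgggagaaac
Kynu: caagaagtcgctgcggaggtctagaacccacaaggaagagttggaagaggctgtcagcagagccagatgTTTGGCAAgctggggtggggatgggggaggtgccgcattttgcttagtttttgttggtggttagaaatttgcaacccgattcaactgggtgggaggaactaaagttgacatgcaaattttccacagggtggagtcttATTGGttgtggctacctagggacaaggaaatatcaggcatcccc
Both strands were searched. General promoter elements were represented by the TATA box with the letters TATAAA and by the CCAAT box. Elements of hepatocyte transcription factors were represented by CAAAGTCCA, which is bound by the nuclear receptor HNF4. A forkhead element of the FOXA family was given the letters TGTTTAC. The element of the C/EBP family, factors known for their part in the control of amino acid enzymes, was given TTGCNNAA. The E-box of the circadian clock was searched as CACGTG. For hormone signals the half-site of the cAMP response element, known to mediate glucagon action, was searched as TGACG. The half-site of the glucocorticoid receptor was searched as AGAACA. The Cps1 window held 1 match, to CAAAGTCCA on the minus strand, 71 to 63 bases before the start, letters that 0.338% of all 33469 rat windows of this length held. The Kynu window held 1 match to TTGCNNAA on the minus strand, 181 to 174 bases before the start (9.22% of all windows), and 1 to CCAAT on the minus strand, 44 to 40 bases before it (34.02%). No motif was matched in both windows. The matches do not overlap one another. The windows also differed in base composition, with 38.0% G and C for Cps1 and 50.4% for Kynu, against a median of 51.2% over all windows.

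Values are in RPM, reads of a gene per 1000000 reads of the library, which the authors deposited with 1 added. They take no account of gene length, so levels are not compared between genes. The spacing of the low values put the depth at 10530000 to 11590000 reads in MO males and at 7890000 to 11170000 reads in the controls. The deposited rows had been selected for a difference. None differed by less than 0.48 on the log2 scale, and 1317 of the 1365 male rows were lower in MO males. The row titled Rmrp, a short RNA without a poly(A) tail, separated the control libraries. RefSeq now gives its accession the symbol Rpph1, with Rmrp as a synonym, so which of these RNAs it measures is uncertain. It stood at 1.71 to 3.11 RPM in the MO males. Control males 1 and 5 had 1.20 and 1.52 RPM, and the remaining controls 36.9 to 51.2 RPM. Control males 1 and 5 were also the most deeply sequenced controls, at 10010000 and 11170000 reads, against 7890000 to 9410000 for the other controls. Differences are therefore given below against either set of controls as well. None of 10 hepatocyte markers such as Alb was among the selected rows, so the tissue could not be checked with them. Of 39 markers of other liver cell types 6 were listed, all lower, with a summed level of 42.8 to 55.3 RPM in MO males and 69.7 to 80.9 RPM in control males. None of those 6 was at 0 in any animal, and their part in the results was not tested. In whole liver, fewer cells of a type and less RNA per cell cannot be told apart.

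All 3 enzymes were lower in MO males, Kynu most and Cps1 least. Kynu was at 82.9 ± 22.2 RPM in MO males and 243 ± 105 RPM in control males (SD, n = 5 and 6), and Hal at 110.4 ± 32.2 RPM in MO males and 236 ± 71.9 RPM in control males. Cps1 was at 857 ± 51.5 RPM in MO males and 1265 ± 362 RPM in control males (SD, n = 5 and 6). Being listed as lower sets none of them apart, since 96.5% of the male rows were called lower by limma. The median log2 difference of all male rows was -0.58, and each member is read against it.

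**Figure D1:**
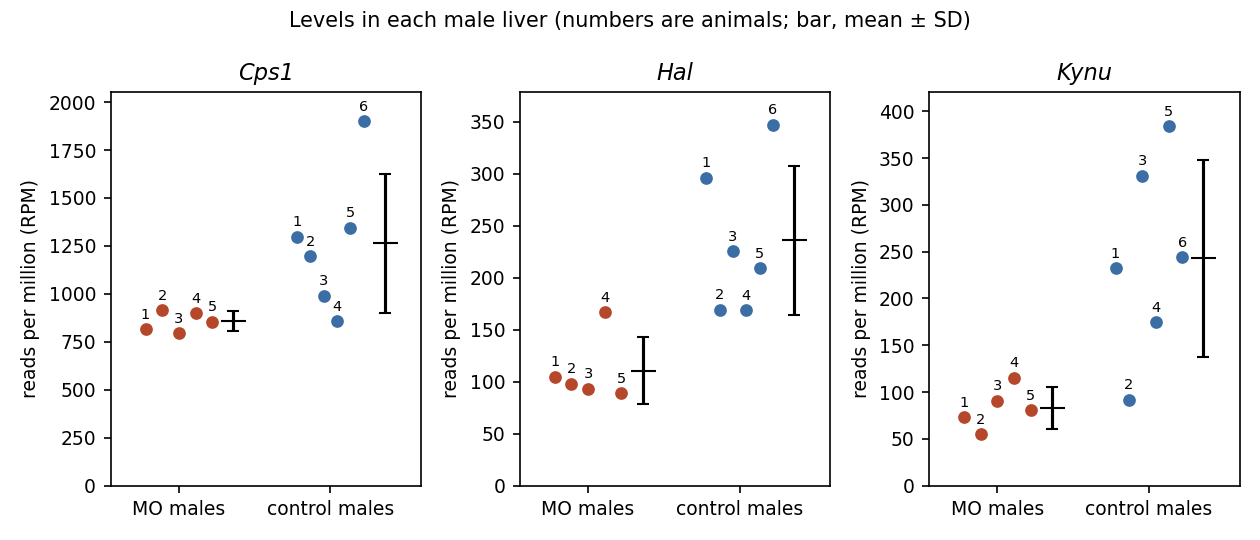
RPM of Cps1, Hal and Kynu (vertical axes, from 0) in each of the 5 MO males and 6 control males; the numbers are animals and the bars give mean ± SD. The MO males lie close together for Cps1 (796 to 916 RPM) beside widely spread controls, Hal separates the groups by a narrow margin at MO male 4, and control male 2 sits among the MO males for Kynu.

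Kynu had 73.1, 55.0, 90.7, 115 and 80.7 RPM in MO males 1 to 5, against a lowest value of 91.9, a median of 238 and a highest of 384 RPM in control males. Control male 2, at 91.9 RPM, lay inside the range of the MO males, and the other 5 controls lay above every MO animal. The log2 difference was -1.44 ± 0.28 (SE, limma), a level 0.368 times that of the controls, and 24 of the 1365 rows had a more negative one. Without control male 2 the difference was -1.70. It was -1.88 ± 0.27 (SE) against control males 1 and 5 alone and -1.23 ± 0.28 (SE) against control males 2, 3, 4 and 6 alone.

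Hal had 105, 97.9, 93.2, 167 and 88.9 RPM in MO males 1 to 5, against a lowest value of 168.5, a median of 217 and a highest of 347 RPM in control males. The groups did not overlap, as was the case with lower MO values for 29.9% of the male rows, but MO male 4 came within 3 RPM of control males 2 and 4. The other 4 MO animals lay far below. The log2 difference was -1.08 ± 0.21 (SE, limma), a level 0.474 times that of the controls. It was -1.24 without MO male 4, -1.21 ± 0.26 (SE) against control males 1 and 5 alone and -1.01 ± 0.24 (SE) against the other 4 controls.

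Cps1 had 817, 916, 796, 901 and 855 RPM in MO males 1 to 5, against a lowest value of 859, a median of 1247 and a highest of 1899.8 RPM in control males. Control male 4 lay inside the range of the MO males and control male 3, at 991 RPM, just above it. The log2 difference was -0.52 ± 0.19 (SE, limma), a level 0.699 times that of the controls and slightly smaller than the median difference of the table. It was -0.39 without control male 6, the highest control. Against control males 1 and 5 alone it was -0.63 ± 0.20 (SE), and against the other 4 controls -0.46 ± 0.23 (SE). In the fit against those 4, Cps1 was no longer past the limma threshold, which 1327 of the 1365 rows passed.

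The members therefore differ in how they stand to the shift that the listed rows share. With each library centred on the median of its listed rows, the log2 difference was 0.07 ± 0.15 (SE) for Cps1, of the opposite sign to that on the deposited scale. For Hal it was -0.49 ± 0.15 (SE) and for Kynu -0.86 ± 0.28 (SE). None of the 3 was past the limma threshold of 0.05 on that scale, as was also the case for 1293 of the 1365 rows. On that scale Cps1 stood 5.65 to 6.12 log2 units above the library median in MO males and 5.38 to 6.05 in control males, so the groups overlapped throughout. Hal stood 2.57 to 3.33 units above it in MO males and 3.12 to 3.73 in control males, and Kynu 2.09 to 2.80 and 2.24 to 4.24 units in the same groups. All of the listed rows had been selected for a difference, so their median is not known to be that of the whole liver transcriptome.

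Spread within the groups is given next. The coefficient of variation of Cps1 was 6.01% in MO males and 28.6% in control males, and 15 of 1365 rows had a smaller one in MO males. Without control male 6 that of the controls was 18.2%. On the log2 scale the SD of Cps1 was 0.087 in MO males and 0.40 in control males. With the libraries centred on their medians it was 0.21 in MO males and 0.28 in control males, and 680 rows had a smaller one in MO males, so the contrast depends on the scaling. These checks of the spread were added after the values had been seen. Hal varied by 29.2% in MO males and 30.5% in control males, but by 7.12% in MO males without MO male 4. Kynu varied by 26.8% in MO males and 43.3% in control males. The median row varied by 21.1% in MO males and 23.9% in control males. The RPM values stood for about 6778 to 17877 reads of Cps1, 1030.2 to 3266 of Hal and 579 to 4291 of Kynu. The counting error of a value was then at most 1.2% for Cps1, 3.1% for Hal and 4.2% for Kynu, smaller than the spread within either group.

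The urea cycle genes around Cps1 were next counted in a list of 21 genes of the cycle and of ammonia handling. Of these, 8 were listed in males, all 8 lower, as were 96.5% of all male rows, and the other 13 were not. Their median log2 difference was -0.67, against -0.58 for all male rows, and passing limma followed from the selection of the rows. Nags makes N-acetylglutamate, the activator that Cps1 needs, and was at 64.3 ± 12.2 RPM in MO males and 103 ± 31.2 RPM in control males (SD, n = 5 and 6; log2 difference -0.64 ± 0.20, SE). Otc, which joins carbamoyl phosphate to ornithine in the next step, was at 358 ± 76.5 RPM in MO males and 511 ± 80.0 RPM in control males (-0.52 ± 0.18, SE). Asl, which splits argininosuccinate, was at 271 ± 61.0 RPM in MO males and 456 ± 166 RPM in control males (-0.69 ± 0.23, SE). Ass1 and Arg1, which complete the cycle, were not among the listed rows.

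The largest differences of that list were in genes at the edge of the cycle. Oat, which turns ornithine into glutamate semialdehyde and is known as a pericentral gene, was at 134.4 ± 39.1 RPM in MO males and 285 ± 113 RPM in control males (log2 difference -1.06 ± 0.24, SE). Aqp9, a channel for glycerol and urea, was at 94.6 ± 10.4 RPM in MO males and 191 ± 39.3 RPM in control males (-0.99 ± 0.18, SE). Both were lower in 5 of 5 MO males than in every control, as were 29.9% of all male rows. After centring, Aqp9 was the single urea list row that passed limma (-0.40; adjusted p = 0.033), as did 1.76% of the male rows in that direction. Centring does not undo the selection of the rows, so this p-value is not a test of Aqp9. The aminotransferases Gpt2 (-0.69 ± 0.23, SE) and Got2 (-0.54 ± 0.17, SE), which move amino groups between amino acids and glutamate or aspartate, were lower as well, Got2 without overlap between the groups.

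**Figure D2:**
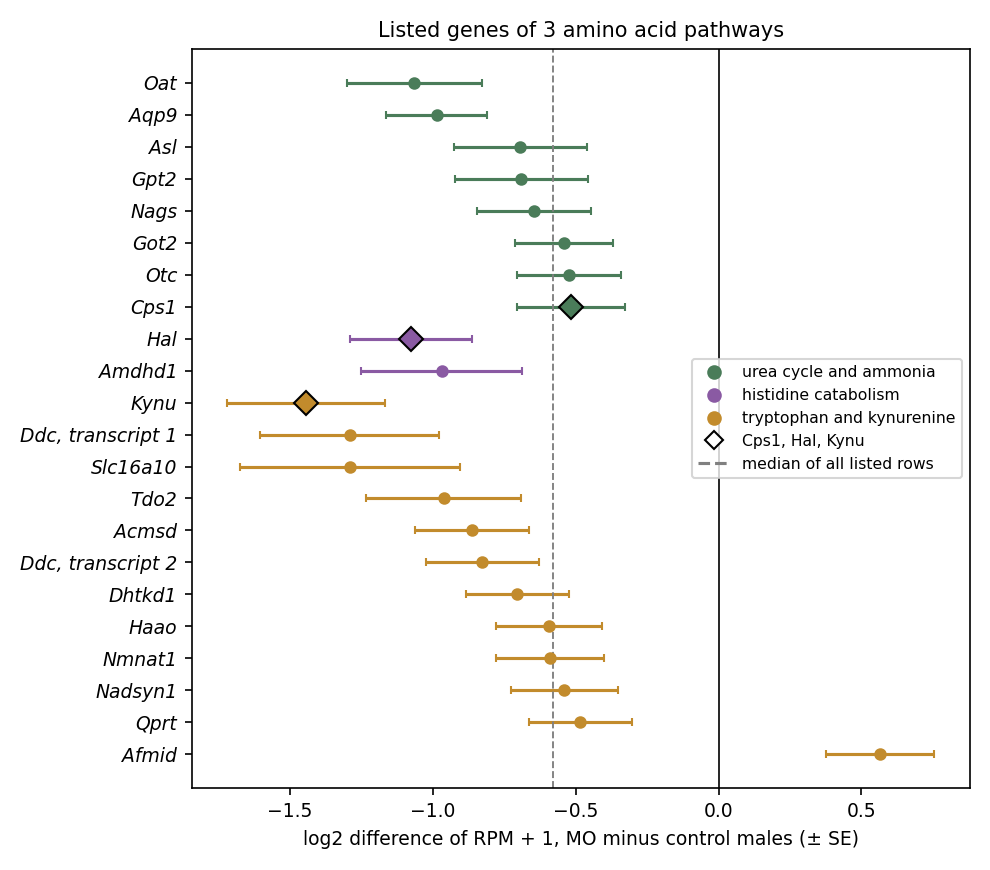
Log2 difference of RPM + 1, MO minus control males, with SE (horizontal axis) for the 22 listed rows of the urea, histidine and tryptophan lists; diamonds mark Cps1, Hal and Kynu, and the dashed line is the median of all 1365 male rows, -0.58. Kynu lies farthest to the left, Cps1 lies at the dashed line, and Afmid is the one row to the right of 0.

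Of 7 genes of histidine breakdown, Hal and Amdhd1 were listed, both lower, as were 96.5% of all male rows. The other 5 were not listed, among them Uroc1, the urocanase that takes up the product of Hal, and Ftcd, which hands on its formimino group. Amdhd1, the imidazolonepropionase that acts after urocanase, was at 55.5 ± 7.93 RPM in MO males and 122 ± 55.3 RPM in control males (SD, n = 5 and 6). Its log2 difference was -0.97 ± 0.28 (SE). The MO males had 44.7 to 66.2 RPM of Amdhd1 and the controls 45.7 to 174 RPM. Control males 2 and 4 were the lowest controls for Amdhd1, as they were for Hal, and lay within the range of the MO males.

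The tryptophan list had 24 genes, of which 11 were listed in 12 rows. Of these rows 11 were lower and 1 was higher, against 96.5% lower and 3.52% higher over all male rows, and the median log2 difference was -0.77. Tdo2, the tryptophan dioxygenase that opens the route in liver, was at 570 ± 179 RPM in MO males and 1170 ± 505 RPM in control males (SD, n = 5 and 6; log2 difference -0.96 ± 0.27, SE). Afmid, the formamidase that releases kynurenine in the following step, was the row that was higher. It had 222 to 278 RPM in MO males and 128 to 272 RPM in control males, with 5 of the controls at 178 RPM or less and control male 6 at 272 RPM. The groups thus overlapped, whereas in 0.733% of the male rows every MO animal lay above every control. Its log2 difference was 0.57 ± 0.19 (SE; limma adjusted p = 0.011) and 1.15 after centring, where it passed as well (limma adjusted p = 2.1e-05). On the deposited scale passing follows from the selection of the rows, and centring does not undo that selection. Centring moves every row upwards by the shared shift, and 48 of the 1365 male rows, 3.52%, passed as higher on each scale. Kmo, which hydroxylates kynurenine before Kynu can release 3-hydroxyanthranilate, was not among the listed rows.

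Downstream of Kynu, the steps towards NAD were lower by amounts close to the median row. Haao, which opens the ring of 3-hydroxyanthranilate, was at 206 ± 29.2 RPM in MO males and 316 ± 82.3 RPM in control males (SD, n = 5 and 6; log2 difference -0.59 ± 0.19, SE). Qprt, which makes the nicotinate nucleotide, was at 67.8 ± 14.4 RPM in MO males and 94.5 ± 16.1 RPM in control males (-0.48 ± 0.18, SE). Nmnat1 (-0.59 ± 0.19, SE) and Nadsyn1 (-0.54 ± 0.19, SE) catalyse the last steps of NAD synthesis. Acmsd, which diverts the route away from NAD, was at 1.28 ± 0.444 RPM in MO males and 3.21 ± 1.16 RPM in control males (-0.86 ± 0.20, SE, on a scale that understates changes at so low a level). Its groups did not overlap, as was the case with lower MO values for 29.9% of all male rows.

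Genes beside the main route completed the list. Slc16a10, a carrier of aromatic amino acids, was at 5.61 to 14.9 RPM in MO males and 6.55 to 54.5 RPM in control males (log2 difference -1.29 ± 0.39, SE). Ddc, the decarboxylase of aromatic amino acids, had a pair of transcripts listed, at -0.83 ± 0.20 and -1.29 ± 0.31 (SE). Reads that fit both transcripts could have been divided between them, so these values are uncertain. Dhtkd1, a dehydrogenase subunit of the lysine and tryptophan end route, was at -0.70 ± 0.18 (SE).

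**Figure D3:**
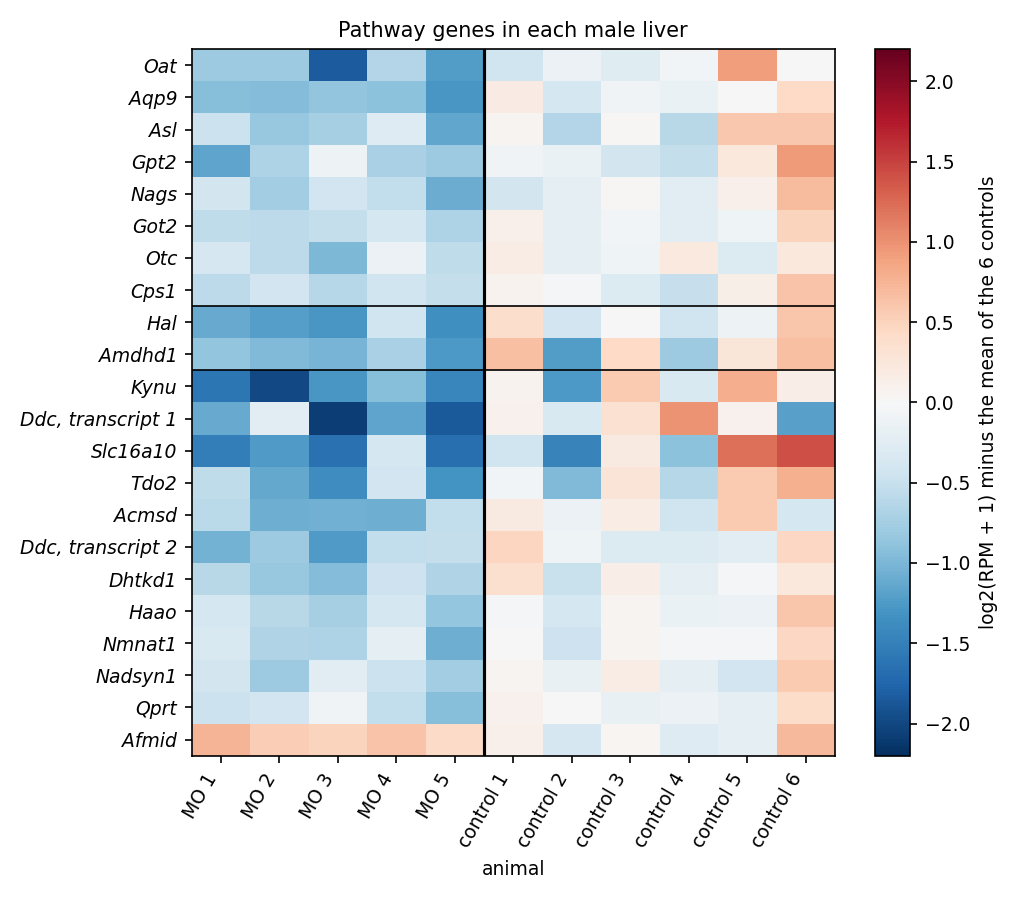
Log2(RPM + 1) minus the mean of the 6 controls (colour) for the same 22 rows (vertical) in each MO male and control male (horizontal), with lines between the urea, histidine and tryptophan lists. MO columns are blue or near white except for Afmid, and control males 2 and 4 are the bluest controls for Kynu, Tdo2, Amdhd1 and Slc16a10.

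Ratios of enzymes within an animal depend little on how its library was scaled. These pairs were chosen after the values had been seen, and share the comparison by which the members were chosen, so they are given without a test. The log2 ratio of Kynu to Afmid was -1.59 ± 0.403 in MO males and 0.416 ± 0.702 in control males (SD, n = 5 and 6). It was -2.11 to -1.15 in the MO males and -0.48 to 1.43 in the controls, with no overlap. Kynu was the most lowered row of these lists and Afmid the only higher one, so this separation follows largely from the choice of the pair. How many other pairs of rows separate the groups was not counted. The ratio of Kynu to Tdo2 differed less, at -2.75 ± 0.473 in MO males and -2.27 ± 0.377 in control males, and 2 of 5 MO males below every control. Relative to Haao, Kynu was at -1.33 ± 0.406 in MO males and -0.481 ± 0.656 in control males, and 2 of 5 MO males lay below every control. Relative to Qprt it was at 0.272 ± 0.493 in MO males and 1.23 ± 0.803 in control males, with 1 of 5 MO males below every control.

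For histidine and urea the ratios of neighbours differed between the groups by less than their SD. The log2 ratio of Hal to Amdhd1 was 0.949 ± 0.220 in MO males and 1.06 ± 0.493 in control males (SD, n = 5 and 6). That of Cps1 to Otc was 1.28 ± 0.277 in MO males and 1.27 ± 0.439 in control males. Between the members, the log2 ratio of Hal to Cps1 was -2.98 ± 0.335 in MO males and -2.42 ± 0.281 in control males, lower in 4 of 5 MO males than in every control. It restates the larger difference of Hal than of Cps1 given above, and the share of other pairs like it was not counted. The log2 ratio of Kynu to Hal was -0.409 ± 0.319 in MO males and -0.0415 ± 0.663 in control males, and the groups overlapped.

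**Figure D4:**
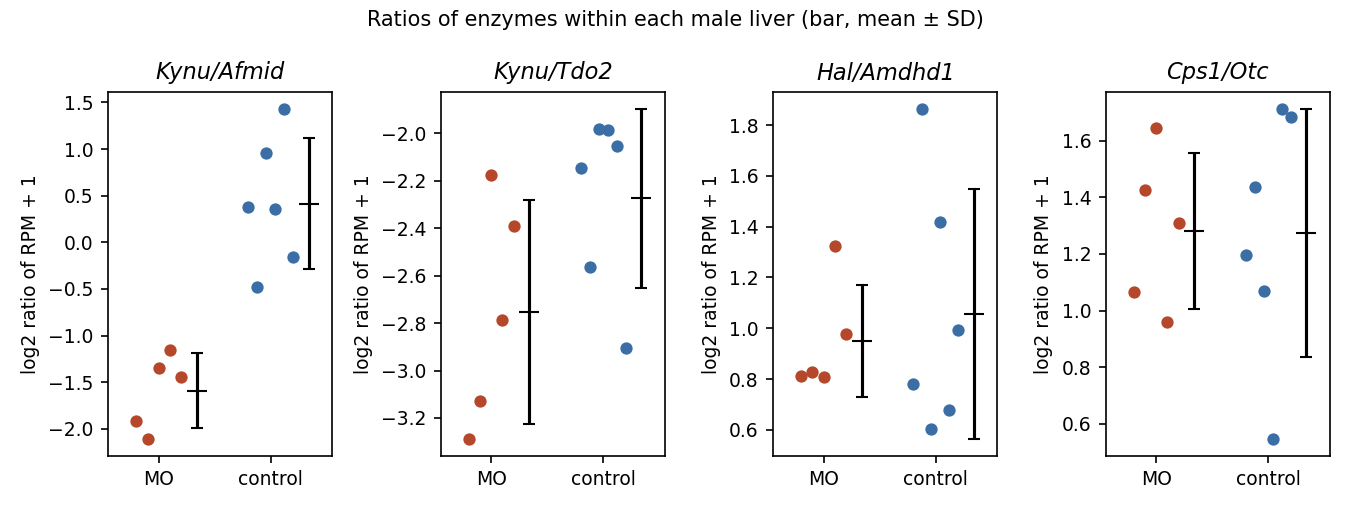
Log2 ratios of RPM + 1 between enzymes of a pathway (vertical axes, each with its own range) in each of 5 MO males and 6 control males, with mean ± SD. The Kynu to Afmid ratio separates the groups, at -2.11 to -1.15 in MO males and -0.48 to 1.43 in control males, whereas the Cps1 to Otc and Hal to Amdhd1 ratios overlap. Kynu is the most lowered and Afmid the only higher row of the urea, histidine and tryptophan lists.

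Whether the enzymes varied together was examined among the 6 control males, a measure that had not been used to choose them. Over log2 values, Pearson's r was 0.77 between Cps1 and Hal (exact permutation p = 0.079, adjusted over 3 pairs 0.24; Spearman's rho 0.71, exact permutation p = 0.14, adjusted 0.41). It was 0.45 between Hal and Kynu (exact permutation p = 0.39, adjusted 0.58; rho 0.43, p = 0.42, adjusted 0.42). It was 0.17 between Cps1 and Kynu (exact permutation p = 0.74, adjusted 0.74; rho 0.43, p = 0.42, adjusted 0.42). None of the 3 pairs passed. Without the 2 animals farthest from the median of the first gene, r was 0.15 for Cps1 and Hal, 0.87 for Hal and Kynu and -0.02 for Cps1 and Kynu. That of Cps1 and Hal thus rested on control males 4 and 6. That of Hal and Kynu also depended on single animals, at 0.07 without control male 2. The median r of Cps1 with all other rows was 0.50 in these controls, that of Hal 0.66 and that of Kynu 0.28.

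The rows most like each enzyme were found by Pearson's r over the 11 males after the group means had been subtracted, as a description. For Cps1 these were Rhobtb2 (r = 0.94), the plasminogen receptor Plgrkt (0.93), the plasma protease Habp2 (0.92), Scfd1 of vesicle transport (0.88) and Abat, which degrades the amino acid GABA (0.87). For Hal they were Ndrg2 (0.94), the mitochondrial protein Nipsnap1 (0.94), Crcp (0.91), the nucleotide hydrolase Nudt18 (0.91) and Cnnm3 (0.91). For Kynu they were the sulfotransferase Sult1c2 (0.92), Arhgap12 (0.92), Rhobtb3 (0.89), the small GTPase Rab30 (0.88) and Ei24 (0.87). Rab30 was higher in MO males (log2 difference 0.68 ± 0.22, SE) and the other 14 were lower, Sult1c2 most (-1.74 ± 0.36, SE). No row was in more than 1 of these sets. The median r over all other rows was 0.36 for Cps1, 0.54 for Hal and 0.29 for Kynu.

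Beyond these 3 routes, phenylalanine and tyrosine breakdown had 3 of 8 genes listed in males, all lower. Hgd, the homogentisate dioxygenase, was at 167 ± 28.5 RPM in MO males and 334 ± 95.1 RPM in control males (SD, n = 5 and 6; log2 difference -0.96 ± 0.21, SE). Hpd, which acts just before it, was at -0.74 ± 0.20 (SE) and Gstz1, which acts just after it, at -0.50 ± 0.18 (SE). Branched-chain amino acid breakdown had 5 of 21 listed, all lower, with a median of -0.50. Among them was the dehydrogenase subunit Bckdha at -0.49 ± 0.16 (SE). Of 10 genes of serine, threonine, proline and lysine breakdown, Aldh4a1 of proline oxidation was listed (-0.66 ± 0.18, SE). Over these lists and the previous ones together, 30 of 91 genes were listed in 31 rows, 30 lower and 1 higher, with a median of -0.66. Over all male rows 96.5% were lower and the median was -0.58, so the count of lower rows is that of the table.

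The place of these enzymes in the liver lobule was set beside zonation markers. Of 14 periportal genes 3 were listed, all lower, namely Cdh1 (log2 difference -1.09 ± 0.19, SE), Cyp2f4 (-0.59 ± 0.18, SE) and the cationic amino acid carrier Slc7a2 (-0.58 ± 0.21, SE). Of 13 pericentral genes 2 were listed, Oat and the Wnt target Axin2 (-0.79 ± 0.22, SE), both lower. These counts do not stand apart from the 96.5% of male rows that were lower. Of 17 transcription factors and receptors known to act on amino acid enzymes, such as Hnf4a, Cebpa, Nr3c1 and Gcgr, 0 were listed in males.

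In the smaller table, 0 of the 91 amino acid genes were listed in females, so neither a level nor a sex difference can be given for the enzymes there. From the regulators, the table held Gcgr, the receptor for glucagon, a hormone that raises urea cycle enzymes. Gcgr was at 23.4 ± 10.9 RPM in MO females and 10.5 ± 4.33 RPM in control females (SD, n = 5 and 6), above every control in 4 of 5 MO females. Its log2 difference was 1.07 ± 0.46 (SE; limma adjusted p = 0.041), and 50.7% of the 69 female rows were called higher and 30.4% lower. The female rows had also been selected for a difference between these groups, so this p-value is not a test of Gcgr. The listed row is a non-coding transcript of the gene by its RefSeq prefix.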

How the data were processed

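Liver RNA-seq tables of the whole series, 1 per sex, were used. The deposited values are in RPM with 1 added, a unit read from the numbers since no header names it. The lowest was exactly 1, and once 1 was taken off, 81.4% to 86.8% of the male values under 9 RPM fell on whole multiples of a library's own step (tolerance 0.02 of a read). In the female libraries 55.6% to 63.5% of such values did, so the unit is less certain there. In either sex the rest did not, so no count test was run. The deposited fold column holds unsigned log2 differences, recovered here in 1365 male and 67 female rows; the column of p-values from the authors was left aside. STAR 2.3.1j, Partek and rn5 are named, per the submitters' processing notes; their roles, the counting and the strandedness are not stated there. Each table was fitted with limma-trend (limma 3.58.1 in R 4.3.3) on log2(RPM + 1) without a filter, with Benjamini-Hochberg adjustment over its rows at 0.05. Because rows were selected, passing follows from the selection and the SEs may be too small. Fold changes on this scale understate those of low genes. Alternatives were a pseudocount of 0.1 or 5 RPM, rows of at least 1 RPM, median centring, a replicate block, no trend, other control sets and leaving out each animal. Names were matched by symbol, accession or gene ID (1349 of 1365 male rows to GRCr8). Named genes were the members, listed genes of the pathway, regulator and zonation lists, the 5 rows most like each member, and Rmrp. Members and lists were chosen with earlier results of these data known.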

Additional observations from a re-analysis of the deposited data

Results flagged for a closer look

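In 100 groups of animals (50 rows named in the text, in MO and in control males), 8 held 1 animal that lay far from the rest of its group. For independent, normally distributed groups chance flags about 1 in 20. These rows share the same animals, so no excess can be read from the count. Of the members only Hal had one, at 167 RPM in MO male 4, against 88.9 to 105 RPM in the other MO males. MO male 4 was also apart for Slc16a10, at 14.9 RPM against 5.61 to 7.79 RPM, and MO male 5 for Aqp9, at 76.5 RPM against 96.7 to 103 RPM. Control male 6 was the high one for Haao (474 RPM, others 237 to 322 RPM), Nags (162 RPM, others 75.0 to 107 RPM), Afmid (272 RPM, others 128 to 178 RPM) and Habp2 (378 RPM, others 179 to 248 RPM). Its library had the highest median of the listed rows, 4.92 on the log2 scale against 4.29 to 4.58 in the other controls. Control male 5 was apart for Oat, at 511 RPM against 200 to 268 RPM in the other controls.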

How the results depend on the processing

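The log2 differences of Cps1, Hal and Kynu kept their sign under every alternative run, except for Cps1 after centring (0.068). Centring, which removes the shift of -0.58 that the listed male rows share, also made the differences of Hal (-0.49) and Kynu (-0.86) smaller. It left 72 male rows past the limma threshold in place of 1365 and none of the members. The cause was not tested. Cps1 also did not pass against control males 2, 3, 4 and 6 alone. Against control males 1 and 5 alone 531 male rows passed, with 7 animals in that fit. In females, 56 rows passed, and 34 to 53 when 1 animal was left out. Across leave-one-out fits the difference of Kynu was -1.70 to -1.29, that of Hal -1.24 to -0.96 and that of Cps1 -0.62 to -0.39. After centring, the correlation in control males was 0.44 for Cps1 and Hal, 0.27 for Hal and Kynu and -0.11 for Cps1 and Kynu. The samples shared only a replicate number: same-numbered deviations correlated at -0.10 to 0.15 in males and -0.42 to 0.33 in females, and 1 of 5 male pairs and 3 of 5 female pairs correlated best with their own number. With the replicate block (control animal 6 left out) the difference was -0.39 for Cps1, -0.96 for Hal and -1.42 for Kynu, 1343 male rows passed, and 26 female rows. Rows outside the deposited selection are not analysed here. Depth sets the counting error given for the members, which covers counting alone.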

Other observations

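These values were looked at after the results above were known. Among the 6 control males, animals 2 and 4 were the pair with the lowest values in 11 of the 22 rows of the urea, histidine and tryptophan lists, and in 29.9% of all male rows. After centring they were the lowest pair in 5 of the 22 and in 10.9% of all rows. Hal and Amdhd1 were among the rows with this pair lowest on the RPM scale, and so were Kynu and Tdo2.

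Nampt, which salvages nicotinamide for NAD synthesis, was at 160 ± 44.3 RPM in MO males and 56.8 ± 11.5 RPM in control males (SD, n = 5 and 6), above every control in 5 of 5 MO males, as were 0.733% of all male rows. Nampt was chosen after its values had been seen.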
